A study of Homo sapiens with 6 samples.

Results

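The 4 ERBB receptor genes (EGFR, ERBB2, ERBB3 and ERBB4) and 6 genes of proteins that restrain these receptors (ERRFI1, LRIG1, LRIG2, LRIG3, CBL and CBLB) were followed in Huh7, an established human cell line from a liver cancer, after knockdown of versican V1. The 10 genes were taken by symbol from a table of 23344 rows, and each had 1 row. RNA sequencing was done on 3 control libraries, from cells given a control lentivirus (shNC), and on 3 knockdown libraries, from cells given a lentivirus against VersicanV1 that bears the label of a single hairpin (sh2). Both viruses were made in 293T cells, a human kidney line, and entered Huh7 with polybrene, and both groups were grown in the same medium with serum. The study's title places the action of versican V1 on the EGFR, PI3K and AKT pathway, so the levels of these receptors and their inhibitors bear on the question it asked.

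ERBB receptors are tyrosine kinases of the cell surface that pair up when a ligand of the epidermal growth factor family binds, and then feed the RAS-ERK and PI3K-AKT pathways. EGFR binds EGF, amphiregulin and related ligands, ERBB2 has no known ligand of its own, ERBB3 binds neuregulins but has a weak kinase and signals through its partners, and ERBB4 binds neuregulins with an active kinase. Signalling is held in check by feedback: ERRFI1 binds the kinase domain and blocks it, CBL and CBLB are ubiquitin ligases that mark active receptors for degradation, and the LRIG proteins are transmembrane proteins, of which LRIG1 is known to lower receptor levels. In the liver, EGFR and ERBB3 are the receptors of this family best known from hepatocytes.

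Values were treated as FPKM, fragments scaled to transcript length and library size. The deposited table states no unit, and TPM with some genes left out would look the same. They summed to between 851418 and 975501 per library, and read totals are not known. VCAN, the versican gene, was at 4.79, 6.24 and 8.10 FPKM in control replicates 1, 2 and 3 and at 1.90, 1.74 and 1.64 in knockdown replicates 1, 2 and 3, so the groups did not overlap (log2 fold change -1.39, SE 0.19, limma adjusted p = 0.0103; without control replicate 2 the adjusted p = 0.0537). Rows are genes, so the V1 isoform was not seen apart from the others. All 14 hepatocyte markers were listed at 1 FPKM or more in some library, with ALB at 3128 to 4006 FPKM. In limma 3 of the 14 rose (FGB, APOA1 and FGA) and 2 fell (TTR and KRT8). Among all genes tested 4.15% were higher and 3.94% lower. Of 14 blood cell markers 12 were listed, with sums of 76.55 to 92.56 FPKM in control and 108.8 to 206 in knockdown libraries, highest in knockdown replicate 2. The largest part of these sums was CD14, at 45.6 to 70.15 FPKM in control and 57.1 to 72.5 in knockdown libraries (limma adjusted p = 0.456). PTPRC, the pan-leukocyte gene, was at 1.96 FPKM in knockdown replicate 2 and at 0.16 or less in the other libraries. S100A8, CD2, CD3E and MS4A1 were listed at 0 in all control libraries. In knockdown replicates 1, 2 and 3 S100A8 was at 0, 17.9 and 0 FPKM and MS4A1 at 0, 0.3 and 0. In the same order CD2 was at 0, 0.33 and 0.12, CD3E at 0.07, 0.43 and 0, and S100A9 at 4.13, 30.57 and 1.92. LYZ, the lysozyme gene of myeloid cells, was above the controls in all knockdown libraries, at 18.3, 24.7 and 24.8 FPKM in control and 44.5, 68.2 and 37.8 in knockdown replicates 1, 2 and 3 (limma adjusted p = 0.0277), and the other 3 blood markers tested did not pass. The sums of 8 fibroblast markers were 174 to 200 FPKM in control and 180 to 199 in knockdown libraries. Most of this was LUM, at 163 to 183 FPKM in control and 147 to 173 in knockdown libraries. Of 4 tested, the collagen genes COL1A2, from a mean of 8.32 to 23.1 FPKM, and COL1A1, from 1.26 to 2.82, rose in knockdown libraries (limma adjusted p = 0.00770 and 0.0362). The part of these cell types in the results was not tested. The sums of 2 endothelial markers were at most 0.17.

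On the values as deposited, ERRFI1 and CBLB were higher in all knockdown libraries than in all control libraries. The other 8 genes overlapped between the groups. All 10 passed the filter on low values (at least 1 FPKM in at least 3 libraries). In the test across all genes (limma on log2(FPKM + 1), Benjamini-Hochberg adjusted p below 0.05), 2 of 10 rose and 0 fell, while 8.08% of the 13696 genes tested changed, 4.15% higher and 3.94% lower. At an unadjusted p below 0.05 the members' counts were the same, while 13.4% of all genes were higher and 16% lower. Groups did not overlap for 33.1% of all genes tested, with the knockdown libraries above in 14.4%. The median log2 fold change of the 10 genes was 0.06, against -0.03 for all genes tested. The calls over all genes were 568 higher and 539 lower, and 680 higher and 223 lower after rescaling to library totals that leave out the mitochondrially encoded genes. With that rescaling the knockdown libraries lay above all control libraries for 3 of the 10 genes and below for 0. The shares of all genes were then 18.6% above and 11.6% below.

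**Figure D1:**
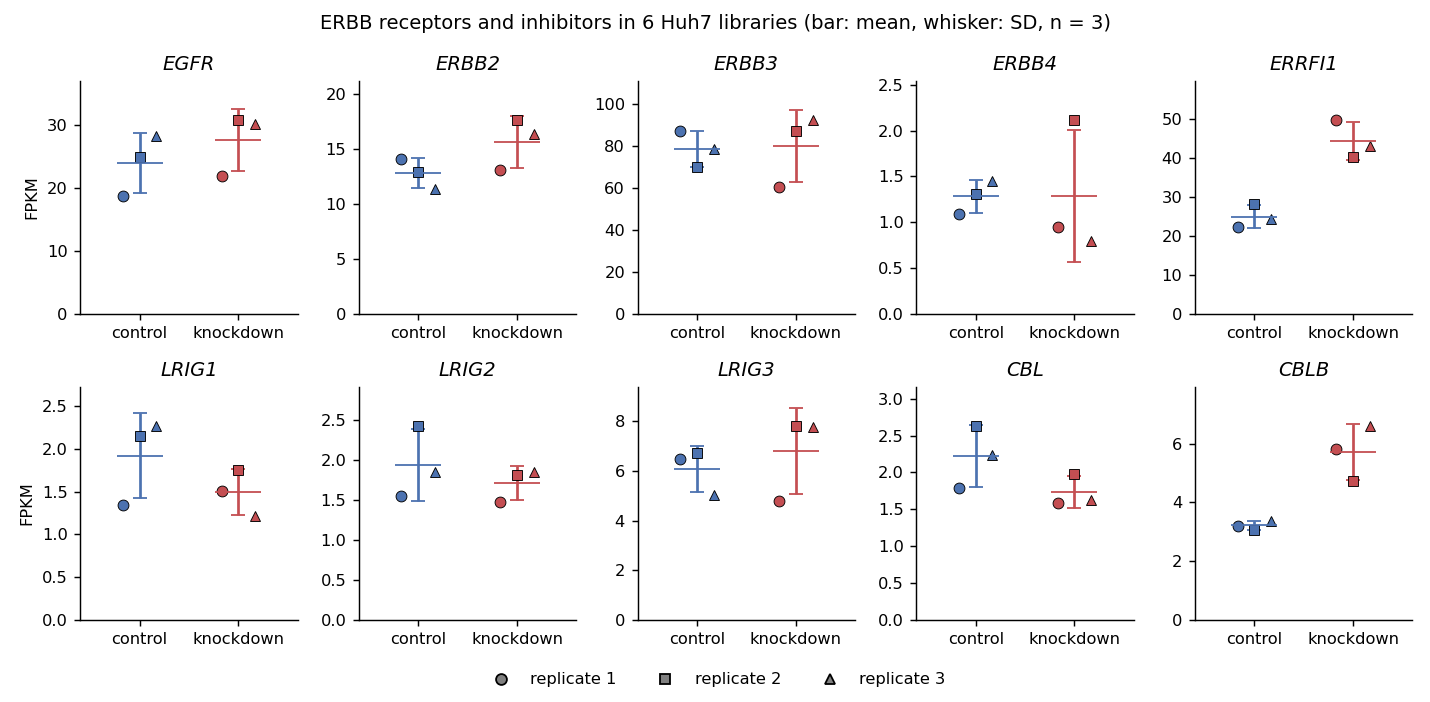
FPKM of the 10 genes in each of the 6 libraries, with circles, squares and triangles for replicates 1, 2 and 3, and with the mean and SD of each group (n = 3). ERRFI1 and CBLB are the genes whose control and knockdown points do not overlap; in EGFR, ERBB2, ERBB3 and LRIG3 knockdown replicate 1 lies below the other two knockdown replicates.

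Among the receptors ERBB3 had the highest level. It was at 86.85, 69.7 and 78.6 FPKM in control replicates 1, 2 and 3 and at 60.1, 87.1 and 92.3 in knockdown replicates 1, 2 and 3. The knockdown libraries held both the lowest and the highest value, so the groups overlapped fully. Its log2 fold change was 0.01 (SE 0.17, 95% interval -0.39 to 0.40, adjusted p = 0.983), and the sign turned in 3 of 12 alternatives. By its mean over the 6 libraries ERBB3 stood at percentile 89.4 of all genes tested.

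EGFR was at 18.7, 24.8 and 28.15 FPKM in control replicates 1, 2 and 3 and at 21.8, 30.8 and 30.1 in knockdown replicates 1, 2 and 3. Replicate 1 was the lowest library in each group, and knockdown replicate 1 lay inside the control range. The log2 fold change was 0.20 (SE 0.19, 95% interval -0.22 to 0.63), and it ranged from 0.043 without control replicate 1 (adjusted p = 0.906) to 0.36 without knockdown replicate 1 (adjusted p = 0.149). It was 0.33 without control replicate 3, 0.12 without knockdown replicate 2, 0.13 without knockdown replicate 3 and 0.31 with the rescaling. The interval leaves room for a lower as well as for a higher level in the knockdown libraries.

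ERBB2, the receptor without a ligand, was at 14.1, 12.9 and 11.3 FPKM in control and at 13.04, 17.6 and 16.3 in knockdown replicates 1, 2 and 3. Knockdown replicates 2 and 3 were above all control libraries, and knockdown replicate 1 was among them. Its log2 fold change was 0.27 (SE 0.15, 95% interval -0.07 to 0.61, adjusted p = 0.270). Without knockdown replicate 1 it was 0.39 (adjusted p = 0.0657), and with the rescaling 0.37 (limma adjusted p = 0.199).

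ERBB4 was the lowest of the 10 genes, at percentile 5.12 of the genes tested. It was at 1.09, 1.31 and 1.45 FPKM in control and at 0.95, 2.12 and 0.80 in knockdown replicates 1, 2 and 3, so that the knockdown libraries fell on either side of the controls. The log2 fold change was -0.04 (SE 0.24, adjusted p = 0.937) and turned positive, at 0.023, when libraries were rescaled without mitochondrially encoded genes. At this level the added 1 FPKM compresses any change, and with 0.1 added instead the log2 fold change was -0.10.

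The summed level of the 4 receptors was 121, 109 and 120 FPKM in control and 95.9, 138 and 139.5 in knockdown replicates 1, 2 and 3. ERBB3 made up 62.6% to 71.96% of that sum, EGFR 15.5% to 23.5%, ERBB2 9.49% to 13.6% and ERBB4 0.573% to 1.54% over the 6 libraries. The mean ERBB3 share was 67.3% ± 4.14 (SD, n = 3) in control libraries and 64.0% ± 1.87 after knockdown, and the groups overlapped for each receptor. Control replicate 1 stood apart in this make-up: its ERBB3 level was 4.65 times its EGFR level, while in the other 5 libraries the ratio was between 2.75 and 3.06. FPKM is scaled to transcript length, so these shares compare transcripts and not receptor protein.

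**Figure D2:**
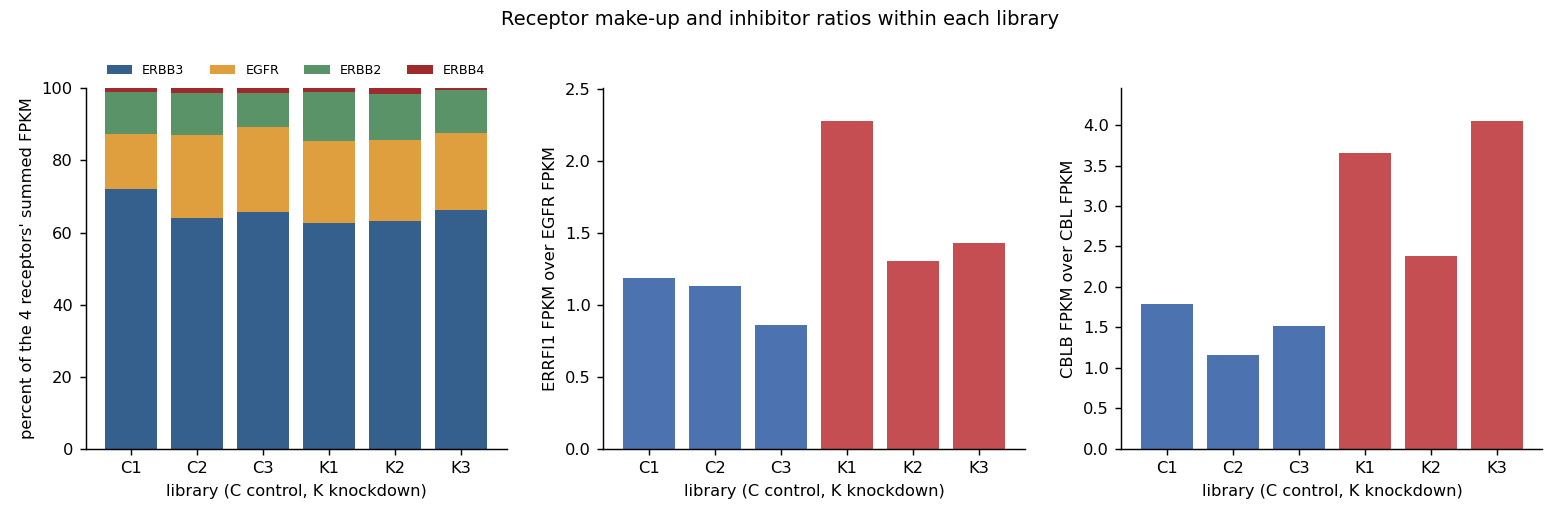
Left, the percent of the summed FPKM of the 4 ERBB receptors held by each in every library; middle and right, the ratio of ERRFI1 to EGFR and of CBLB to CBL in the same libraries (C1 to C3 control, K1 to K3 knockdown). ERBB3 holds the largest share in every library, and each knockdown bar lies above all control bars in both ratio panels.

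ERRFI1, the feedback inhibitor of the receptor kinase (ENSG00000116285), rose. It was at 22.2, 28.0 and 24.2 FPKM in control replicates 1, 2 and 3 and at 49.7, 40.2 and 42.95 in knockdown replicates 1, 2 and 3. The lowest knockdown library was well above the highest control library. The means were 24.8 ± 2.95 and 44.3 ± 4.87 (SD, n = 3), a ratio of 1.78 (log2 fold change 0.81, SE 0.13, limma adjusted p = 0.0164). Its log2 fold change stood at percentile 95.8 of all genes tested.

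The size of the ERRFI1 rise lay between 0.73 and 0.92 on the log2 scale over 12 alternatives, and it passed in 8 of them. It missed the threshold without control replicate 1, 2 or 3 (adjusted p = 0.0608, 0.0537 and 0.0547) and without knockdown replicate 2 (adjusted p = 0.0531). Those fits have 5 libraries, and fewer genes passed in them overall. Without knockdown replicate 2, the library with the most blood cell transcripts, the log2 fold change was 0.88; the part of such transcripts in the other knockdown libraries was not tested.

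Within each library ERRFI1 was set against EGFR. The ratio of ERRFI1 to EGFR was 1.19, 1.13 and 0.861 in control and 2.28, 1.31 and 1.43 in knockdown replicates 1, 2 and 3. All knockdown ratios lay above all control ratios, with knockdown replicate 1, which had the least EGFR and the most ERRFI1 of its group, far above the rest. Without that library the mean knockdown ratio was 1.37, against 1.67 with it and 1.06 in control libraries. This order is the same when ERRFI1 is set against all 4 receptors, with 0.184 to 0.258 in control and 0.292 to 0.518 in knockdown libraries.

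CBLB, a ubiquitin ligase gene (ENSG00000114423), rose as well. It was at 3.21, 3.06 and 3.38 FPKM in control replicates 1, 2 and 3 and at 5.81, 4.71 and 6.60 in knockdown replicates 1, 2 and 3. The control libraries were within a narrow range and every knockdown library was above it. The means were 3.22 ± 0.160 and 5.71 ± 0.949 (SD, n = 3), a ratio of 1.77 (log2 fold change 0.66, SE 0.16, limma adjusted p = 0.0409). With 0.1 FPKM added in place of 1 the log2 fold change was 0.80.

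The call of CBLB was near the threshold and passed in 4 of 12 alternatives. Leaving out control replicate 1, 2 or 3 gave an adjusted p = 0.0987, 0.140 and 0.0904, and leaving out knockdown replicate 2 or 3 gave an adjusted p = 0.0749 and 0.156. Quantile normalization gave 0.0539, and testing without a filter 0.0831. The log2 fold change stayed between 0.57 and 0.80, and it was 0.77 without knockdown replicate 2.

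**Figure D3:**
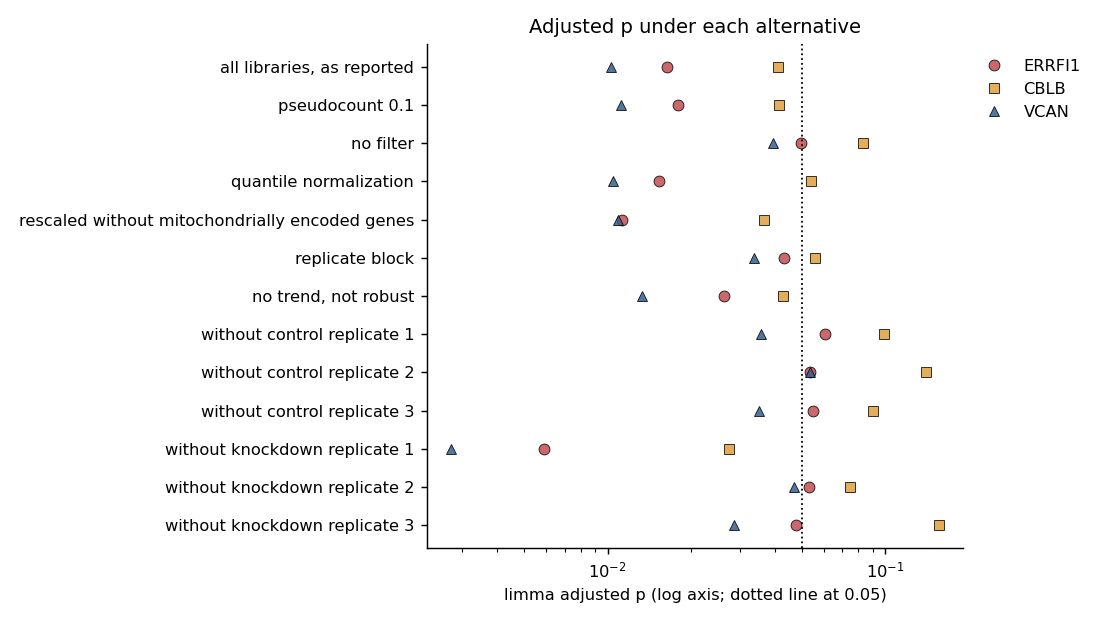
Limma adjusted p, on a log axis, of ERRFI1, CBLB and VCAN with all 6 libraries and under each of 12 alternatives, with a dotted line at 0.05. CBLB lies right of the line in 8 alternatives, ERRFI1 in 4 and VCAN in 1.

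CBL, the closest relative of CBLB, did not pass the test. It was at 1.79, 2.63 and 2.23 FPKM in control and at 1.59, 1.98 and 1.63 in knockdown replicates 1, 2 and 3, with overlapping groups (log2 fold change -0.23, SE 0.17, 95% interval -0.62 to 0.16). CBLB exceeded CBL in each library, by 1.79, 1.164 and 1.52 times in control and by 3.65, 2.38 and 4.05 times in knockdown replicates 1, 2 and 3. CBLB thus made up 59.4% ± 5.26 (SD, n = 3) of the summed CBL and CBLB level in control libraries and 76.4% ± 5.24 after knockdown. CBLC, the third gene of the family, was at 0.16 FPKM or less in every library and was not tested.

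**Figure D4:**
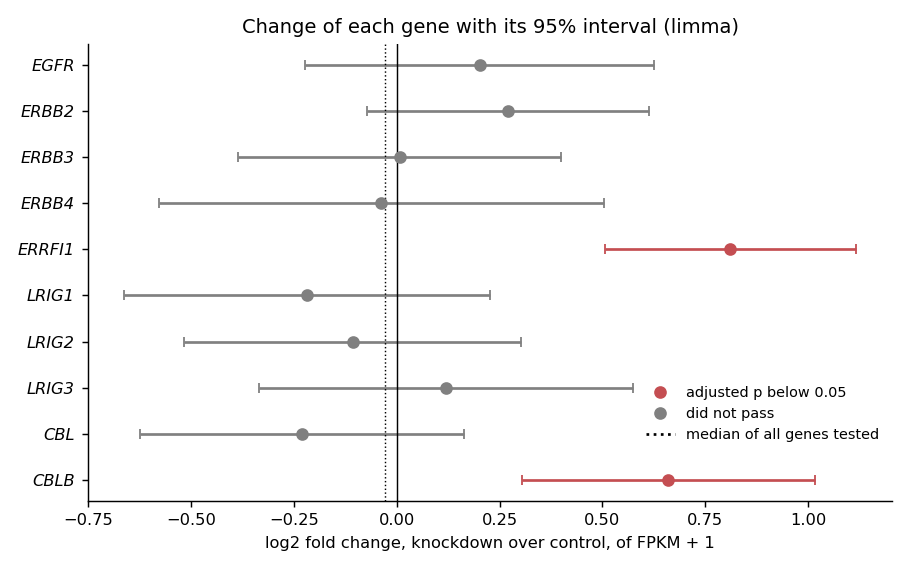
Log2 fold change of FPKM + 1, knockdown over control, with its 95% interval from limma, for the 10 genes; the solid line marks no change and the dotted line the median of all genes tested (-0.03). The intervals of ERRFI1 and CBLB lie above 0 and the other 8 span it.

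Of the LRIG genes LRIG3 had the highest level, with 6.50, 6.72 and 5.03 FPKM in control and 4.79, 7.82 and 7.77 in knockdown replicates 1, 2 and 3. As in EGFR and ERBB2, knockdown replicates 2 and 3 were above all control libraries and knockdown replicate 1 was not. The log2 fold change was 0.12 (SE 0.20, 95% interval -0.34 to 0.57), and 0.32 without knockdown replicate 1 (adjusted p = 0.169). It was 0.0079 without control replicate 3, 0.017 without knockdown replicate 2, 0.021 without knockdown replicate 3, 0.19 without control replicate 2 and 0.21 with the rescaling.

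LRIG1, the member known to lower ERBB receptors, was at 1.35, 2.15 and 2.27 FPKM in control and at 1.51, 1.76 and 1.22 in knockdown replicates 1, 2 and 3. LRIG2 was at 1.54, 2.42 and 1.84 and at 1.47, 1.81 and 1.85 in the same order. Both overlapped between the groups, with log2 fold changes of -0.22 (SE 0.20, 95% interval -0.66 to 0.23) and -0.11 (SE 0.18, 95% interval -0.52 to 0.30). LRIG3 made up 61.3% ± 7.25 (SD, n = 3) of the summed LRIG level in control and 67.3% ± 5.15 in knockdown libraries, and that sum was 9.94 ± 1.18 and 10.0 ± 1.95 FPKM.

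The order of the 10 genes by mean level was the same in both groups: ERBB3, ERRFI1, EGFR, ERBB2, LRIG3, CBLB, CBL, LRIG2, LRIG1 and ERBB4. In control libraries the ranges of ERRFI1 and EGFR overlapped, and in knockdown libraries they did not. For LRIG3 and CBLB it was the other way round, with ranges that overlapped in knockdown libraries and not in control libraries. The 4 lowest genes, CBL to ERBB4, overlapped each with the next in both groups, and CBL did not overlap with CBLB above it. By percentile of level among all genes tested ERRFI1 stood at 77.5, EGFR at 71.3, ERBB2 at 57.2, LRIG3 at 38.0 and CBLB at 29.4, and the other 4 lay between 5.12 and 13.2.

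Since ERRFI1 and CBLB rose together, their promoters are shown. RefSeq's promoter table (GRCh38.p14) had an entry for 8 of the 10 genes, with 17 start sites in all; ERBB3 and CBL had none. The 250 bases before the start of ERRFI1 (chr1:8026310-8026559, minus strand) and before the start of CBLB farthest upstream of its 5 (chr3:105869402-105869651, minus strand) read as follows, 5′ to 3′, with the GC box in capitals (GGGCGG or its reverse complement).
ERRFI1: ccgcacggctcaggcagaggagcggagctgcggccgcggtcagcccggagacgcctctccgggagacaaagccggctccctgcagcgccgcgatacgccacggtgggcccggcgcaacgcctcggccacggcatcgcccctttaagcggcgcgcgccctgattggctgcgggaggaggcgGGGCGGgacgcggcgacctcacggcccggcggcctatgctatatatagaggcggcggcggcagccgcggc
CBLB: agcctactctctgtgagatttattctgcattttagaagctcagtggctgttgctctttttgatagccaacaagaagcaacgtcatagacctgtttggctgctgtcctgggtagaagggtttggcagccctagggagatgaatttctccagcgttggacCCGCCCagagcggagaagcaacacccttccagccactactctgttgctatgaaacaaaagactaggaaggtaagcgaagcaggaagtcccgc

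The window of 300 bases at the ERRFI1 start is 74.7% G and C, and those at the CBLB starts are 53% for the start shown and 69% to 72% for the other 4, against a median of 58.7% in 35116 such windows. Windows were searched on both strands for AP-1 (TGANTCA), CRE (TGACGTCA), EGR (GCGGGGGCG), a TATA box (TATAAA), a GC box (GGGCGG), an E-box (CACGTG), the SRF motif and the NF-kB motif; EGR and GC box matches can share bases. In the ERRFI1 window the GC box was the only match, and 45% of all windows hold it. Among the 5 CBLB windows the start at position 105869012 had an EGR match, which 5.07% of all windows hold, and that at 105868559 an NF-kB match, which 11.3% hold. AP-1 matches, held by 7.71% of all windows, lay in the windows of an internal EGFR start, of ERBB2 and of an LRIG1 start, genes that did not pass the test. These matches are letters in a window, and no binding was measured.

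The genes whose pattern over the 6 libraries was most like that of ERRFI1 were CEBPD, a transcription factor gene, MBNL2, a splicing regulator gene, and PHLDA1. Likeness was the root mean square difference of log2(FPKM + 1) values, each gene centred on its mean, and it was 0.0982, 0.1001 and 0.1007 for these genes among 7025 candidates. Candidates had a mean log2 value of at least 3, and members and clone, pseudogene or antisense names were left out. Since genes were chosen by this likeness, a shared order of the replicates is no separate observation. CEBPD was at 60.0, 63.7 and 65.7 FPKM in control and at 121, 91.15 and 104 in knockdown replicates 1, 2 and 3. For EGFR the most alike were SLC22A5, a carnitine transporter gene, MLLT4, which encodes afadin, and ZNF7, a zinc finger gene, with differences of 0.039, 0.046 and 0.047. MLLT4 was at 53.7, 71.4 and 81.4 FPKM in control and at 67.1, 92.4 and 93.0 in knockdown replicates 1, 2 and 3.

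Among the ligands of the receptors AREGB and EREG rose. Of 12 ERBB ligand genes 5 were tested, 2 rose and 0 fell in limma (4 higher and 0 lower at an unadjusted p below 0.05, against 13.4% and 16% of all genes). AREGB, a copy of the amphiregulin gene AREG so alike that the source of the reads is uncertain, rose from a mean of 33.2 to 140 FPKM, and EREG, the epiregulin gene, from 5.81 to 17.3. HBEGF, the gene of heparin-binding EGF, was at 0.58 to 1.07 FPKM in control and 1.26 to 3.78 in knockdown libraries and did not pass (adjusted p = 0.0749, and 0.00355 without knockdown replicate 1). In the fit without knockdown replicate 1, 3284 of 13408 genes changed, against 1107 of 13696 with all libraries. NRG4, a neuregulin gene, did not pass either (adjusted p = 0.0925), and BTC, the betacellulin gene, overlapped between the groups (log2 fold change 0.11, adjusted p = 0.770). AREGB and EREG passed in each of 12 alternatives. Of 5 tested genes that act in ligand release, RHBDF1, a rhomboid-like gene, rose from 9.65 to 23.8 FPKM (log2 fold change 1.13, limma adjusted p = 0.0434), passing in 4 of 12 alternatives and, of the fits without a library, in that without knockdown replicate 1 alone. ADAM17, the main sheddase, had a log2 fold change of 0.35 (adjusted p = 0.186).

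None of the tested genes on a list of adaptors and relays, which carry the signal away from the receptors, passed. The list held no PI3K subunit or AKT gene, so it does not cover that arm of the pathway. Of 29 adaptors and relays tested 0 rose and 0 fell (limma; 0 higher and 2 lower at an unadjusted p below 0.05, against 13.4% and 16% of all genes). The median log2 fold change was -0.14, against -0.03 for all genes tested, and on totals without mitochondrial genes it was -0.04, against 0.06. GRB2, the adaptor that links the receptors to RAS, was at 25.55 to 31.7 FPKM in control and 14.6 to 23.1 in knockdown libraries (log2 fold change -0.51, adjusted p = 0.105). It passed without knockdown replicate 1 (adjusted p = 0.0250), the fit in which 3284 of 13408 genes changed.

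Of 24 genes of receptor endocytosis and degradation 0 rose and 0 fell (limma; 1 higher and 7 lower at an unadjusted p below 0.05, against 13.4% and 16% of all genes). The knockdown libraries were below all control libraries for 10 of them and above for 1, against 18.7% below and 14.4% above for all genes tested. On totals without mitochondrial genes these numbers were 4 and 1, against 11.6% below and 18.6% above for all genes. The list median went from -0.09 to 0.02 with that rescaling, and the median of all genes from -0.03 to 0.06. EPN2, an epsin gene, had a log2 fold change of -0.51 (adjusted p = 0.0670), SH3KBP1, whose protein binds CBL, -0.39 (adjusted p = 0.104), and RAB5A, an early endosome GTPase gene, -0.32 (adjusted p = 0.0930). EPN2 passed with quantile normalization (adjusted p = 0.0443) and SH3KBP1 without knockdown replicate 1 (adjusted p = 0.0237), where 3284 of 13408 genes changed.

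Other inhibitors of receptor kinase signalling went both ways. Of 23 tested, 4 rose and 1 fell in limma, against 4.15% higher and 3.94% lower among all genes tested. With quantile normalization or with the rescaling 4 rose and 0 fell. Over all genes, 568 were higher and 539 lower in the main fit. These counts were 562 and 432 with quantile normalization, and 680 and 223 with the rescaling. DUSP5, a nuclear ERK phosphatase gene, rose from 5.92 to 19.4 FPKM (log2 fold change 1.55), and SOCS2, a suppressor of cytokine signalling, from 2.187 to 7.607 (1.44); both passed in each of 12 alternatives. SPRY2, a Sprouty gene, rose by 0.71 and PHLDA1 by 0.72 on the log2 scale, and each passed in 5 of 12, which included no fit without a library other than knockdown replicate 1. SPRY1, named after its values were seen as the gene that fell, was at 11.4, 14.5 and 12 FPKM in control and at 9.25, 5.41 and 4.76 in knockdown replicates 1, 2 and 3 (-0.91, limma adjusted p = 0.0437). It passed in 2 of 12 alternatives, with an adjusted p of up to 0.155, and without knockdown replicate 1 its log2 fold change was -1.16.

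Among 8 tested chaperones and surface partners of the receptors 1 rose and 2 fell in limma, against 4.15% higher and 3.94% lower among all genes tested. HSP90AA1 and HSP90AB1, genes of the HSP90 chaperone on which ERBB2 depends, fell from 882 ± 152 to 483 ± 24.7 (SD, n = 3) and from 705 ± 74.0 to 465 ± 38.9 FPKM (log2 fold changes -0.86 and -0.60, limma adjusted p = 0.0150 and 0.0277). HSP90B1, the form of the endoplasmic reticulum, had a log2 fold change of 0.01. MUC1, a membrane mucin gene known to bind ERBB receptors, rose from 2.79 to 8.01 FPKM (1.24, limma adjusted p = 0.0131). HSP90AA1 lost the call without control replicate 2 or knockdown replicate 2, MUC1 without control replicate 2, and HSP90AB1, which passed in 6 of 12 alternatives, without control replicate 2 or 3 or knockdown replicate 2 or 3, with no filter and with quantile normalization.

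**Figure D5:**
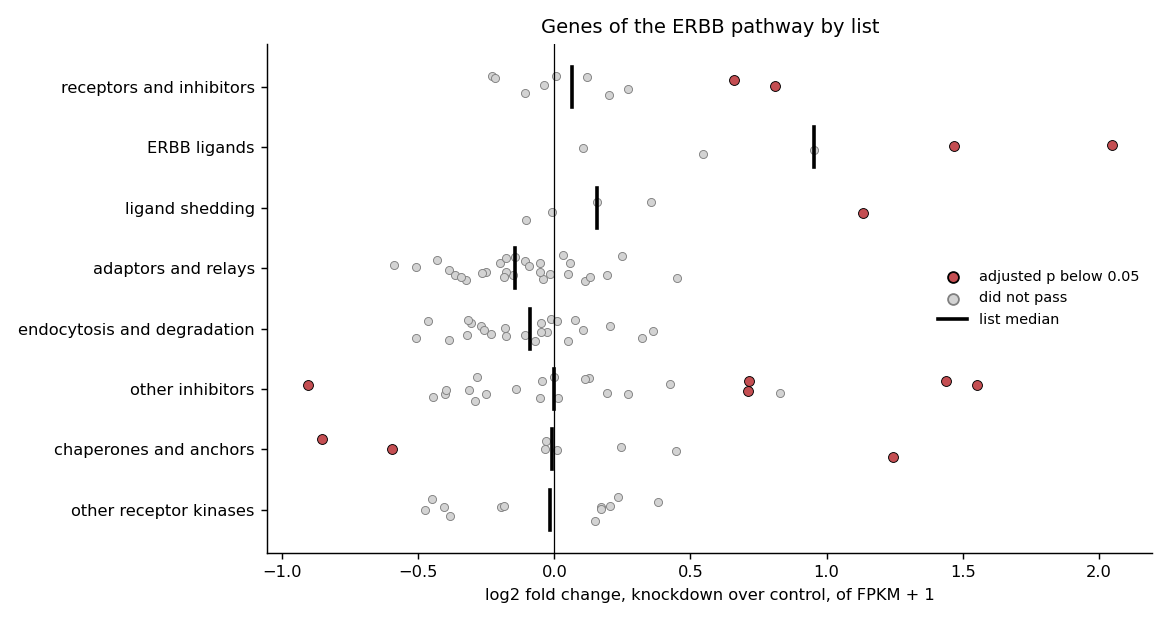
Log2 fold change of FPKM + 1, knockdown over control, of each tested gene of 8 lists of the ERBB pathway, with red points for genes that passed the test and a bar at the list median. Of the 5 ligands 2 passed, and no adaptor, endocytosis or other receptor kinase gene passed.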

How the data were processed

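The authors deposited 1 table of human Ensembl gene IDs with symbols and 1 column per library, each matched to a sample by its title, and 0 columns were left unmapped. Its values were treated as FPKM made by the authors. That unit is an assumption, since none is stated and TPM with some genes left out would look the same. The submitters' processing notes name RSEM 1.1.17 and Bowtie2 2.2.6 among other tools, without roles, and the mouse build mm10 although the IDs are human, so the build is uncertain. Read depth cannot be had from these values, so there are no counting intervals. No label says that the 3 libraries of a group were separate cultures, and p-values then measure only the spread between these samples, which may be technical. Libraries correlated at 0.949 to 0.987 (log2 values), and none were identical.

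Genes at 1 FPKM or more in 3 libraries were tested on log2(FPKM + 1) with limma 3.58.1 in R 4.3.3 (trend, robust, two-sided, Benjamini-Hochberg over all 13696). The test was first run on simulated libraries in which genes varied independently. Differences shared by many genes of a library were not simulated, so that run cannot tell how reliable the calls here are. A fold change on this scale understates the change of low genes. With 3 against 3 an exact permutation test cannot go below p = 0.1. The members and lists were chosen with earlier results of these data known. Genes named were the members, VCAN, up to 4 genes with the smallest p in each list, and the 3 genes most like EGFR and ERRFI1; some genes the rule selects are not described. Named after their values were seen were BTC, SPRY1, HSP90B1, FGFR3, FGFR4, CBLC and the cell type markers given singly. Tried as 12 alternatives were no filter, a pseudocount of 0.1, quantile normalization, rescaling without the 13 mitochondrially encoded genes, the replicate number as a block, no trend or robust moderation, and leaving out each library.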

Additional observations from a re-analysis of the deposited data

How the results depend on the processing

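The log2 fold changes of ERRFI1 and CBLB were positive in all 12 alternatives, and their calls changed as given beside them. Of 10 genes, 1 changed with no filter, 1 with quantile normalization and 1 with the replicate block (CBLB adjusted p = 0.0556 with the block, ERRFI1 passing), and 0 to 2 when a library was left out. All genes changed numbered 221 with no filter, 727 without trend and robust moderation, and 56 (without control replicate 2) to 3284 (without knockdown replicate 1) on leaving out a library. Of 107 pathway genes tested outside the 10, 11 changed, beside 8.08% of all genes tested. The count was 6 with no filter, 7 with the replicate block and 4 to 24 on leaving out a library. The 24 came without knockdown replicate 1, where 3284 of 13408 genes tested changed. The log2 fold change of ERBB3 was -0.11 to 0.20 on leaving out a library, below 0 without control replicate 2 or knockdown replicate 2 or 3. That of ERBB4 was -0.28 to 0.11, above 0 without control replicate 3 or knockdown replicate 1 or 3, and 0.023 with the rescaling. That of LRIG2 was -0.20 to 0.010, above 0 without control replicate 2, and that of ADAM10 was 0.0029 with the rescaling. The cause was not tested. Same-numbered libraries' deviations correlated across genes at 0.05, 0.10 and 0.14, and differently numbered ones at -0.21 to 0.09. Control replicates 2 and 3 correlated best with their own number, and control replicate 1 with knockdown replicate 3 (0.08). The numbers were not taken as pairs in the main fit. With the replicate block the SE of EGFR was 0.11, against 0.19 without it (limma adjusted p = 0.278 and 0.509). Low levels limit CBL, LRIG1, LRIG2 and ERBB4 most.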

Other observations

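Outside the ERBB family, 12 of 32 listed receptor tyrosine kinase genes were tested, and 0 rose and 0 fell (limma; 1 higher and 4 lower at an unadjusted p below 0.05, against 13.4% and 16% of all genes), with a median log2 fold change of -0.02. TYRO3 was at 10.4 to 11.6 FPKM in control and 7.38 to 8.56 in knockdown libraries (-0.45, adjusted p = 0.0657). IGF1R, the receptor of insulin-like growth factors, was at 5.60 to 6.54 and 3.85 to 5.18 FPKM (-0.41, adjusted p = 0.122), and EPHB4, an ephrin receptor gene, had a log2 fold change of -0.38 (adjusted p = 0.104). EPHA2, another ephrin receptor gene, was at 33.25 to 41.4 FPKM in control and 44.7 to 52.0 in knockdown libraries (0.38, adjusted p = 0.0982). TYRO3 and IGF1R passed without knockdown replicate 1 (adjusted p = 0.0228 and 0.0375), where 3284 of 13408 genes changed. The receptor genes FGFR4 and FGFR3 were at 124 to 160 and 80.9 to 106 FPKM over the 6 libraries, beside 60.1 to 92.3 for ERBB3. Of the relatives of the LRIG and CBL genes only CBLL1 was tested (-0.30, adjusted p = 0.305).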
